A study of Mus musculus with 36 samples.

Results

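The genes described here are 37 genes of DNA replication, chosen by name from the 54203 genes of the mouse annotation. They were measured in plasma cells, the B lineage cells that make antibodies. The cells had been sorted from bone marrow of mice, with the strain given as C57/BL6, as positive for a reporter and for CD138 and TACI on the surface. The 36 libraries, each made from 2000 cells, formed 2 cohorts of mice that model multiple myeloma, the cancer of this cell type. Cohort D held Ccnd1-Ikk2ca with 6 libraries, and Ikk2ca(D), Ccnd1 and Control(D) with 4 each. Cohort M held MMSET-Ikk2ca with 6 libraries, and Ikk2ca(M), MMSET and Control(M) with 4 each. Ccnd1 is cyclin D1, MMSET is the histone methyltransferase encoded by Nsd2, and Ikk2 is a kinase that activates NF-kB. The labels used here name no promoter or Cre line, no age and no treatment, and they do not tie each library to a mouse of its own. The p-values therefore measure the spread between these libraries. The comparisons set each group with 1 or 2 transgenes against the control of its cohort, and the double groups against the single ones.

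DNA is copied once in each cell division. In G1 phase ORC, CDC6 and CDT1 load rings of MCM2 to MCM7 onto replication origins. CDC45 and the GINS complex then turn these rings into active helicases. Primase and DNA polymerases copy the opened strands, the PCNA clamp loaded by RFC holds the polymerases on DNA, and FEN1 and LIG1 join the fragments of the lagging strand. Ribonucleotide reductase, thymidylate synthase and thymidine kinase supply nucleotides, and SLBP binds the messenger RNAs of replication histones. Many of these genes are activated by E2F factors once cyclin-dependent kinases have inactivated RB. Most plasma cells no longer divide, so low levels of these genes are typical of the cell type.

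The 3 stretches upstream of replication genes below are shown because E2F motifs upstream of such genes are the textbook link between cyclin D1 and replication, and because Mcm5 and Tk1 passed a test below. They come from RefSeq (GRCm38.p6) and are written 5′ to 3′ on the gene's strand, with E2F motifs in capitals. Mcm5 lies on the plus strand (chr8:75109259-75109508), Mcm6 on the minus strand (chr1:128359706-128359955) and Tk1 on the minus strand (chr11:117826093-117826264). The Tk1 stretch leaves out 78 bases that an annotated exon covers.
Mcm5: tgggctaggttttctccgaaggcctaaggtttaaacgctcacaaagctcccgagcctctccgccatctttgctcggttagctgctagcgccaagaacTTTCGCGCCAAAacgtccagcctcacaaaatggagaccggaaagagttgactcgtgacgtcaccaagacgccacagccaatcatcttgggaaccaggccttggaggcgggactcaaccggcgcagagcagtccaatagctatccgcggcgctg
Mcm6: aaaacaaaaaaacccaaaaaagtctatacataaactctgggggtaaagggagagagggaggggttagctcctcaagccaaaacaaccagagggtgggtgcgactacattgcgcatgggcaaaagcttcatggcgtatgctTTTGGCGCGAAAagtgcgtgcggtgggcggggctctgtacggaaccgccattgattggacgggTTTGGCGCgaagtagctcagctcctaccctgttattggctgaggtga
Tk1: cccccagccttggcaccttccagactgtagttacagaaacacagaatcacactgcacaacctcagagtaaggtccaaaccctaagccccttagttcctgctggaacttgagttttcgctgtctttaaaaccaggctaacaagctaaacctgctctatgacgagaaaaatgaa
The letters searched on both strands were TTTCCCGC, TTTGGCGC, TTTGCCGC and TTTCGCGC. Where a run of capitals is longer than 8 bases, matches on the 2 strands overlap. A window of 250 bases before the start was at hand for 31 of the 37 genes. Of these 7 (22.6%) held at least 1 match (Cdc6, Gins3, Mcm5, Mcm6, Mcm7, Pola1 and Rfc3), against 517 of 27025 genes (1.91%). Of the 6 genes that passed a test below, Mcm5 held a match, Tk1, Cdc45, Fen1 and Slbp held none, and Gins4 had no window. Mcm6, with 3 matches the most of the 31, passed no test. Where a gene had several windows, the 31 used the one nearest the GENCODE start and the 27025 the first listed. For Cdc6 and Mcm7 the RefSeq start lay 350 and 539 bases inside the gene as GENCODE annotates it, so their windows lay within that gene. The letters CCAAT on either strand stood in 17 of the 31 windows (54.8%), against 34.5% of all genes. A match is a string of letters and not a measured binding site.

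Levels are CPM (reads scaled to library size), made comparable over all 36 libraries with TMM factors, given per library or as mean ± SD. Between genes they are compared only per length, as TPM, which also divides by transcript length. Libraries held 54.0 to 97.5 M reads, of which 43.9% to 73.0% came from immunoglobulin genes and 16.2 to 34.9 M from other genes. The 10 plasma cell markers summed to between 4687 and 119988 CPM, so each library carried reads of the labelled cell type's genes. These sums were lower in the double groups than in their controls. They were 7698 to 19677 CPM in Ccnd1-Ikk2ca against 54416 to 100156 CPM in Control(D). In MMSET-Ikk2ca they were 4687 to 6695 CPM against 31334 to 42045 CPM in Control(M). In TPM averaged over all libraries, Tk1 (thymidine kinase 1) was highest of the 37 at 8.92, followed by Fen1 (8.10), Slbp (6.90) and Mcm6 (5.82). These TPM sum all transcripts of a gene, and 64.8% of Tk1 reads lay on its protein-coding transcript, against 100% for Fen1. The order of these genes on protein-coding transcripts alone is not given here. Pole, the catalytic subunit of polymerase epsilon, was lowest at 0.122 TPM, next to Chaf1a, a subunit of the histone chaperone CAF-1, at 0.255. All 37 genes passed the filter on low counts in both cohorts. The reads were thin for Mcm10, which had fewer than 10 reads in 10 libraries and none in 6, and for Chaf1b (7 and 5 libraries). They were thin also for Pole (6 and 1) and Gins1 (5 and 4).

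Summed over the 37 genes, the median level was 514 CPM in Ccnd1-Ikk2ca (440 to 612), 393 CPM in Ikk2ca(D) (314 to 685), 433 CPM in Ccnd1 (362 to 471) and 430 CPM in Control(D) (381 to 474). In cohort M it was 517 CPM in MMSET-Ikk2ca (318 to 619), 381 CPM in Ikk2ca(M) (357 to 517), 426 CPM in MMSET (367 to 744) and 365 CPM in Control(M) (269 to 536). The groups overlapped in both cohorts. Single libraries stood apart from their groups. MMSET 3 had the highest level of its group in 24 of 37 genes, Ikk2ca(D) 1 in 26, Ikk2ca(M) 4 in 20 and Control(M) 3 in 21. MMSET-Ikk2ca 4 had the lowest level of its group in 27 genes, MMSET 4 in 22 and Control(D) 3 in 21. In the same libraries 30 mitosis genes, which serve chromosome segregation and division, summed to 599 CPM in MMSET 3 and 53.1 CPM in MMSET-Ikk2ca 4. Mki67, a marker of dividing cells, was at 63.4 CPM in MMSET 3 and 0.963 CPM in MMSET-Ikk2ca 4. In bulk RNA, fewer dividing cells and less RNA per cell cannot be told apart.

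**Figure D1:**
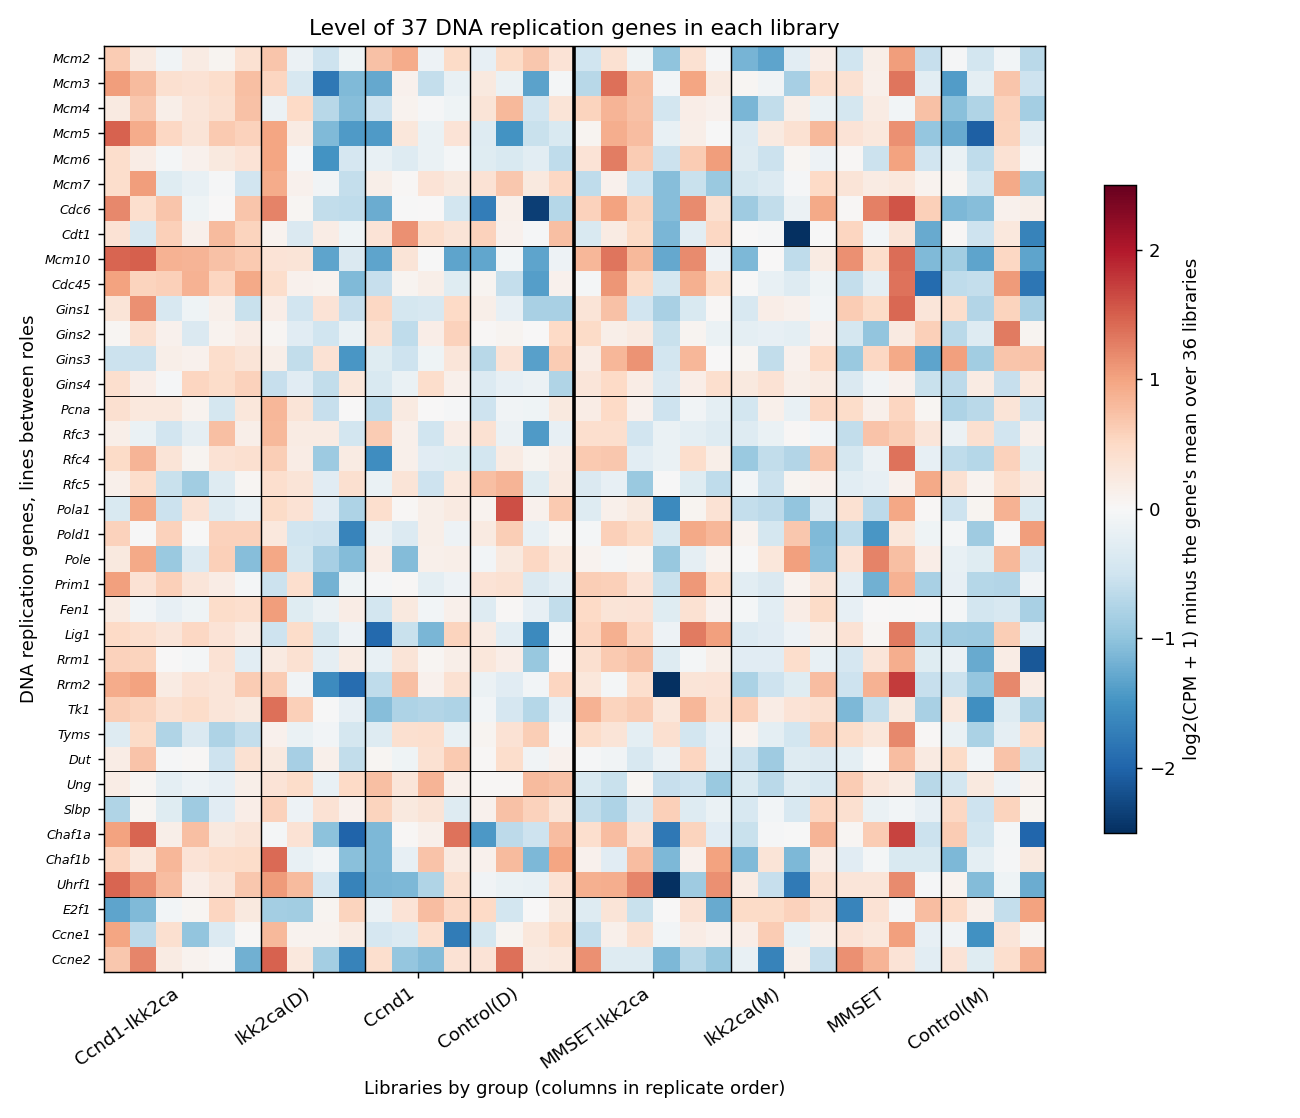
Each row is 1 of the 37 genes, grouped by role, and each column 1 library. Colour gives log2(CPM + 1) minus the gene's mean over the 36 libraries. MMSET 3 is red over most rows and MMSET-Ikk2ca 4 blue over most rows, and the Tk1 row is mostly red in the groups that carry Ikk2ca.

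**Figure D2:**
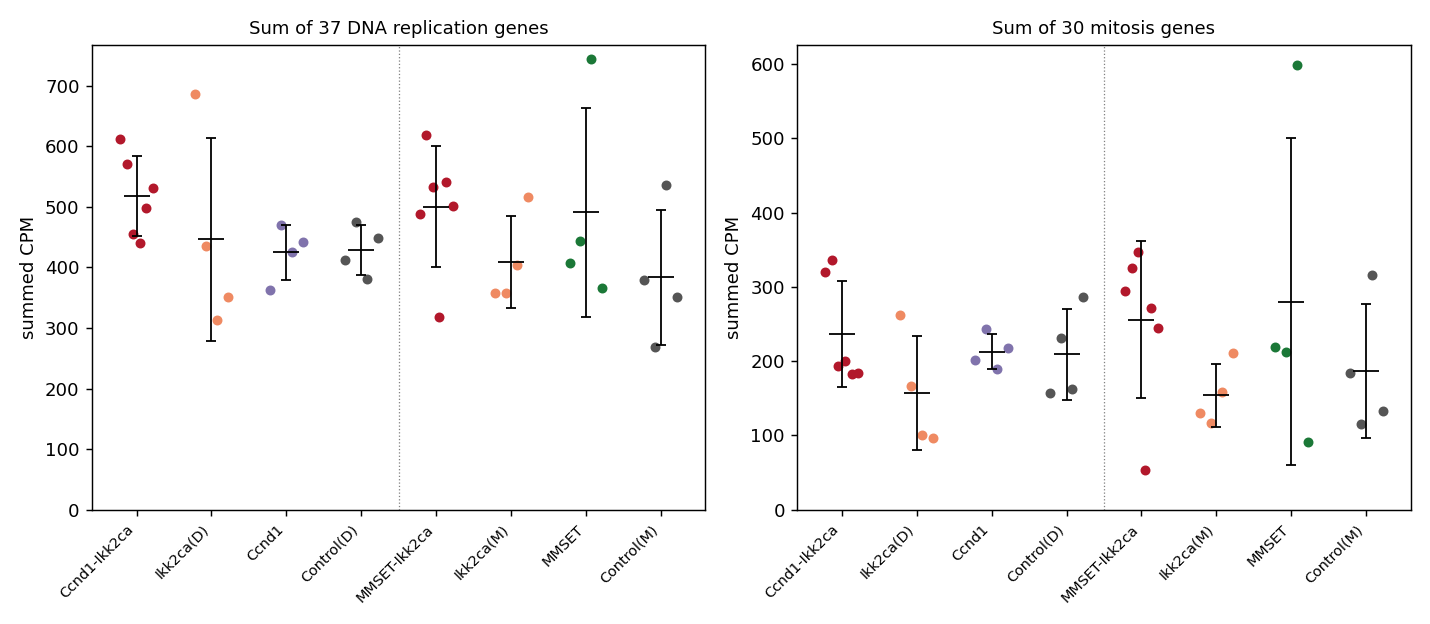
Summed CPM per library for the 37 replication genes (left) and 30 mitosis genes (right), with group mean and SD as bars. Groups overlap in both plots, and MMSET 3 is highest in each, at 744 and 599 CPM.

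Few of the 37 genes passed the test, and most of those that did rose in the double transgenic groups. The test was edgeR's quasi-likelihood test over all genes, with a Benjamini-Hochberg adjusted p under 0.05. In Ccnd1-Ikk2ca against Control(D), 4 genes rose (Mcm5, Cdc45, Gins4 and Tk1) and 1 fell (Slbp), while 32 did not pass. Of all genes tested in that comparison 11.1% passed, 5.83% higher and 5.32% lower, so 5 of 37 is near the background. In MMSET-Ikk2ca against Control(M), 2 genes rose (Fen1 and Tk1) and none fell, against 6.91% of all genes, 3.5% higher and 3.41% lower. This is again near the background. In Ccnd1-Ikk2ca against Ccnd1, Tk1 rose alone, where 6.2% of all genes passed, 2.81% higher and 3.39% lower. At an unadjusted p under 0.05 there were 10, 8 and 7 of the 37 in these 3 comparisons, beside 25.2%, 21.8% and 21.4% of all genes. The median log2 fold change of the 37 genes was 0.27 in Ccnd1-Ikk2ca against Control(D) and 0.34 in MMSET-Ikk2ca against Control(M), beside 0.02 and 0.01 over all genes. Positive values were found for 24 and 23 of the 37 genes, where 51.2% and 50.7% of all genes had one.

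No replication gene passed in the other 10 comparisons. Of all genes, 0.00653% passed in Ccnd1 against Control(D), 0.437% in Ikk2ca(D) against Control(D), 0.649% in MMSET against Control(M) and 0.649% in Ikk2ca(M) against Control(M). Between the double and single groups 0.424% passed for Ccnd1-Ikk2ca against Ikk2ca(D), 0.96% for MMSET-Ikk2ca against Ikk2ca(M) and 1.58% for MMSET-Ikk2ca against MMSET. The interaction, which asks whether 1 transgene acts differently when the other is present, passed for 0.0261% (cohort D) and 0.0973% (cohort M). The difference between the effects of the 2 double groups passed for 0.175%. At an unadjusted p under 0.05, counts of the 37 replication genes are given here beside the share of all genes under that p. Against their controls they were 0 for Ccnd1 (6.28% of all genes), 3 for Ikk2ca(D) (13.3%), 2 for MMSET (13.3%) and 3 for Ikk2ca(M) (12.4%). They were 8 for Ccnd1-Ikk2ca against Ikk2ca(D) (11.3%), 3 for MMSET-Ikk2ca against Ikk2ca(M) (12.5%) and 4 for MMSET-Ikk2ca against MMSET (13.4%). They were 3 and 0 for the interactions in cohorts D and M (6.86% and 10.4%), and 1 for the difference between double effects (11.2%). As shares of 37, these counts lie below the share of all genes except for Ccnd1-Ikk2ca against Ikk2ca(D) and, by a small margin, the interaction in cohort D. DESeq2, run as another tool, called Tk1 in Ikk2ca(D) against Control(D) and in MMSET-Ikk2ca against MMSET and no replication gene in the other 8.

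**Figure D3:**
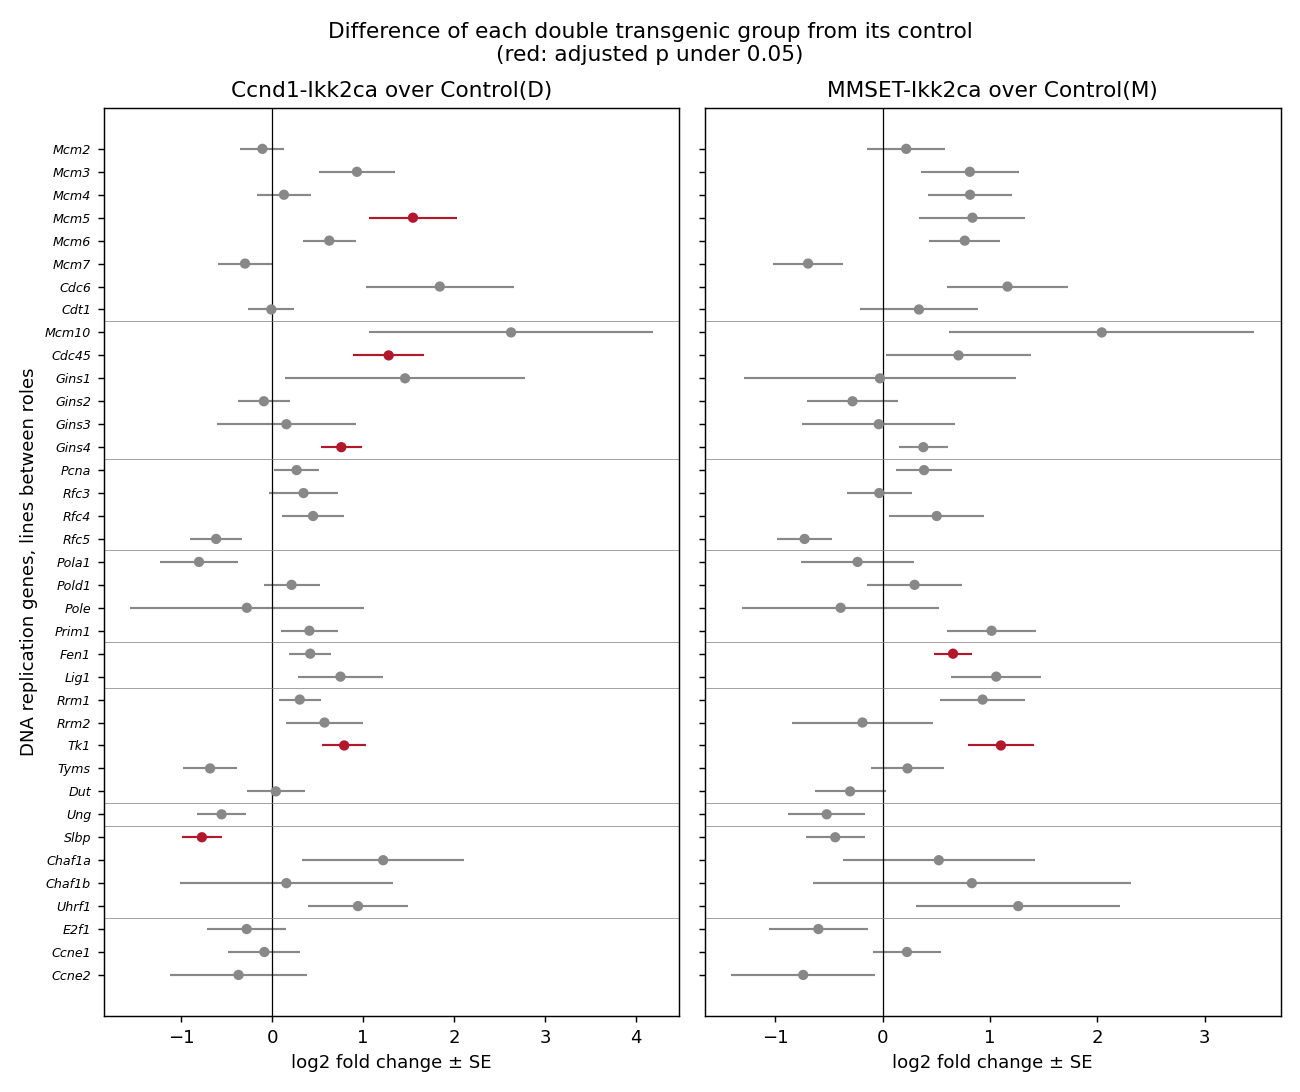
Log2 fold change with SE of each of the 37 genes, grouped by role, in Ccnd1-Ikk2ca over Control(D) (left) and MMSET-Ikk2ca over Control(M) (right). Red points passed the test, 5 on the left and 2 on the right, and most other genes lie within 2 SE of 0.

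Among the genes of origin licensing and helicase loading, Mcm5, a subunit of the MCM ring, rose in Ccnd1-Ikk2ca. Its level was 13.1 CPM at lowest, 16.1 at the median and 29.95 at highest in Ccnd1-Ikk2ca, against 7.92, 2.97, 6.66 and 7.64 CPM in Control(D). The groups did not overlap. The log2 fold change was 1.55 (SE 0.489, adjusted p = 0.0475). The single groups lay between on average, with 21.1, 11.9, 4.20 and 3.22 CPM in Ikk2ca(D) and 3.20, 12.6, 8.97 and 13.1 CPM in Ccnd1, and both overlapped Ccnd1-Ikk2ca. In cohort M the Mcm5 difference of MMSET-Ikk2ca from Control(M) was 0.84 (SE 0.494, adjusted p = 0.36), with 8.80, 11.01 and 20.0003 CPM at lowest, median and highest in MMSET-Ikk2ca against 3.69, 1.72, 15.5 and 8.39 in Control(M). The Mcm5 call in cohort D stood closest to the threshold and was lost when any 1 of the 10 libraries was left out (adjusted p between 0.052 and 0.141).

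The other MCM genes did not pass, and their values did not run one way. In Ccnd1-Ikk2ca against Control(D), log2 fold changes were 0.93 for Mcm3, 0.63 for Mcm6, 0.13 for Mcm4, -0.11 for Mcm2 and -0.30 for Mcm7. In MMSET-Ikk2ca against Control(M) they were 0.81 for Mcm3, 0.77 for Mcm6, 0.82 for Mcm4, 0.22 for Mcm2 and -0.69 for Mcm7, whose exons overlap other genes. The MCM subunits join in equal numbers in a single ring. Cdc6, which helps load that ring, averaged 6.59 ± 2.62 CPM in Ccnd1-Ikk2ca (n = 6), with 3.77 at lowest, 6.62 at the median and 10.96 at highest, against 0.556, 4.63, 0.0169 and 2.16 CPM in Control(D). Its difference there was 1.84 (SE 0.81, adjusted p = 0.157). Cdc6 had 4.25, 11.4, 14.4 and 6.86 CPM in MMSET, against 1.37, 1.46, 4.54 and 4.71 CPM in Control(M), and 1 MMSET library lay within the Control(M) range. That difference was 1.60 (SE 0.613, adjusted p = 0.26). In Ikk2ca(D) Cdc6 was at 11.1, 4.35, 2.38 and 2.33 CPM (1.45 against Control(D), adjusted p = 0.515). Mcm4 stood at 9.22, 14.8, 5.95 and 4.41 CPM in Ikk2ca(D) and at 6.93, 10.9, 10.1 and 9.40 in Ccnd1, against 13.02, 18.8, 7.08 and 13.03 in Control(D). These Mcm4 values overlapped, with differences of -0.59 (adjusted p = 0.473) and -0.47 (adjusted p = 1). Cdt1, the partner of CDC6 in loading, differed by -0.01 in Ccnd1-Ikk2ca against Control(D) and by 0.34 in MMSET-Ikk2ca against Control(M).

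Of the genes that activate the helicase, Cdc45 and Gins4 rose in Ccnd1-Ikk2ca. Cdc45, a part of the active helicase, was at 8.09 CPM at lowest, 9.45 at the median and 11.7 at highest in Ccnd1-Ikk2ca, against 5.58, 3.17, 1.42 and 5.75 CPM in Control(D). It had 7.56, 5.76, 5.68 and 1.91 CPM in Ikk2ca(D) and 3.24, 5.59, 5.97 and 4.12 CPM in Ccnd1, so every Ccnd1-Ikk2ca library lay above the other 12 libraries of the cohort. The log2 fold change against Control(D) was 1.28 (SE 0.392, adjusted p = 0.0406). Against the single groups it was 0.89 for Ikk2ca(D) (adjusted p = 0.381) and 1.02 for Ccnd1 (adjusted p = 0.123), neither past the threshold. In MMSET-Ikk2ca Cdc45 stood at 3.62, 7.74 and 12.4 CPM at lowest, median and highest, against 3.07, 3.17, 12.2 and 0.793 in Control(M), and the groups overlapped (0.71, SE 0.675, adjusted p = 0.632). The call in cohort D was lost without Control(D) 2 (adjusted p = 0.115) or 3 (0.107), and without Ccnd1-Ikk2ca 1 (0.0654), 3 (0.0566), 4 (0.0651) or 6 (0.0683). Exons of Cdc45 overlap those of Ufd1 on the opposite strand, and the counting used no strand.

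Gins4, 1 of the 4 GINS subunits, was at 14.1 CPM at lowest, 20.004 at the median and 22.04 at highest in Ccnd1-Ikk2ca, against 11.3, 12.4, 12.95 and 8.23 CPM in Control(D). The groups did not overlap, and the log2 fold change was 0.76 (SE 0.228, adjusted p = 0.0369). Gins4 stood at 9.36, 11.8, 9.16 and 17.9 CPM in Ikk2ca(D) and at 10.9, 12.8, 19.9 and 15.9 CPM in Ccnd1. Both single groups overlapped Ccnd1-Ikk2ca. Its difference in Ccnd1 against Control(D) was 0.42 (SE 0.245, adjusted p = 0.909). In cohort M the level was 17.1 ± 3.45 CPM in MMSET-Ikk2ca (n = 6) and 17.3 ± 1.12 CPM in Ikk2ca(M), against 13.1 ± 4.63 CPM in Control(M) (n = 4 each), where the libraries held 8.77, 16.7, 9.44 and 17.5 CPM. The Gins4 difference in Ikk2ca(M), with 17.3, 18.8, 16.2 and 16.8 CPM, was 0.39 (SE 0.249, adjusted p = 0.596). The call in cohort D was lost without Control(D) 1 (adjusted p = 0.0811), 2 (0.068), 3 (0.0551) or 4 (0.115), and without Ccnd1-Ikk2ca 1 (0.0531), 4 (0.0664), 5 (0.0587) or 6 (0.0687).

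The partners of Gins4 in the same complex did not pass. Log2 fold changes in Ccnd1-Ikk2ca against Control(D) were -0.09 for Gins2 and 0.16 for Gins3. Of the Gins2 reads, 46.8% lay on protein-coding transcripts in Control(D) and 82.7% in Ccnd1-Ikk2ca. In cohort M these shares were 32.4% in Control(M) and 71.4% in MMSET-Ikk2ca. The value of -0.09 counts all Gins2 transcripts. It does not give the change of the protein-coding ones, whose share was higher in both double groups than in their controls. Gins1 averaged 1.01 ± 0.972 CPM in Ccnd1-Ikk2ca against 0.366 ± 0.456 CPM in Control(D) (n = 6 and n = 4). There were no Gins1 reads in 2 Control(D) libraries. Mcm10, a factor needed to start the helicase, was between 2.91 and 5.97 CPM in Ccnd1-Ikk2ca, against 0.0154, 1.38, 0 and 1.28 CPM in Control(D). These ranges did not overlap, yet the difference of 2.63 carried an SE of 1.56 (adjusted p = 0.324). In MMSET-Ikk2ca Mcm10 ran between 0.0292 and 5.29 CPM, against 0.357, 0, 2.55 and 0 CPM in Control(M).

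Genes of the clamp, the clamp loader and the polymerases did not pass in any of the 13 comparisons. Pcna, the sliding clamp, had 26.4, 20.6, 27.7 and 19.4 CPM in MMSET, against 10.6, 11.4, 24.0 and 12.7 CPM in Control(M), with 1 Control(M) library inside the MMSET range. The difference was 0.68 (SE 0.283, adjusted p = 0.305). Rfc5, a subunit of the clamp loader, was at 5.83, 9.34 and 11.9 CPM at lowest, median and highest in MMSET-Ikk2ca, against 15.8, 12.8, 16.4 and 14.2 CPM in Control(M). These groups did not overlap, and the difference of -0.73 (SE 0.255) had an adjusted p of 0.0938. In Ccnd1, Rfc5 had 10.6, 15.1, 8.07 and 14.7 CPM, against 20.9, 22.2, 9.52 and 14.1 CPM in Control(D) (-0.45, adjusted p = 1). Its partner Rfc4 had 2.21, 9.29, 6.72 and 6.64 CPM in Ccnd1, against 5.89, 9.88, 8.84 and 9.72 CPM in Control(D) (-0.45, adjusted p = 1). Both overlapped. In MMSET-Ikk2ca against Control(M) Rfc4 differed by 0.50 and Rfc3 by -0.03, so the measured loader subunits did not share a sign.

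Pola1, the catalytic subunit of the polymerase that starts each fragment, had 5.58, 5.05, 2.90 and 1.78 CPM in Ikk2ca(D) and 5.32, 3.81, 4.28 and 4.57 CPM in Ccnd1, against 4.05, 13.6, 4.13 and 6.43 CPM in Control(D). The values overlapped, and Control(D) 2 was the highest of these libraries. The differences were -0.88 for Ikk2ca(D) (SE 0.479, adjusted p = 0.466) and -0.64 for Ccnd1 (SE 0.477, adjusted p = 1). In cohort M Pola1 had 2.13, 2.02, 1.40 and 2.68 CPM in Ikk2ca(M), against 2.31, 3.94, 7.62 and 2.65 CPM in Control(M) (-1.01, SE 0.588, adjusted p = 0.532). Pold1, the catalytic subunit of polymerase delta, had 12.1, 6.75, 6.68 and 2.46 CPM in Ikk2ca(D), against 11.8, 15.8, 8.61 and 10.3 CPM in Control(D) (-0.74, SE 0.337, adjusted p = 0.341), and the groups overlapped. It stood at 13.5 ± 2.79 CPM in Ccnd1-Ikk2ca (n = 6), and the interaction was 1.29 (SE 0.458, adjusted p = 0.648). Prim1, the primase, was at 4.96, 11.8 and 17.5 CPM at lowest, median and highest in MMSET-Ikk2ca, against 6.53, 4.33, 4.23 and 7.34 CPM in Control(M). These overlapped at the low end, with a difference of 1.02 (SE 0.412, adjusted p = 0.148).

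Of the pair of genes that join the fragments of the lagging strand, Fen1 rose in MMSET-Ikk2ca. Fen1 cuts off the displaced flap, and its level was 34.8 CPM at lowest, 55.2 at the median and 61.4 at highest in MMSET-Ikk2ca, against 42.0, 31.4, 32.8 and 24.4 CPM in Control(M). MMSET-Ikk2ca 4 lay within the Control(M) range and the other 5 libraries above it. The log2 fold change was 0.66 (SE 0.176, adjusted p = 0.0303). Fen1 had 42.0, 36.2, 49.8 and 60.8 CPM in Ikk2ca(M) and 37.6, 43.8, 42.9 and 43.9 CPM in MMSET, with differences from Control(M) of 0.52 (adjusted p = 0.26) and 0.36 (adjusted p = 0.438). In cohort D it was at 90.4, 35.3, 39.2 and 49.3 CPM in Ikk2ca(D), against 34.6, 44.4, 37.3 and 27.9 CPM in Control(D) (0.57, adjusted p = 0.33). It ran from 37.7 to 60.3 CPM in Ccnd1-Ikk2ca (0.42, adjusted p = 0.28). The call was lost without Control(M) 2 (adjusted p = 0.0738), 3 (0.074) or 4 (0.106), and without MMSET-Ikk2ca 1 (0.0628), 2 (0.0566), 3 (0.0572) or 5 (0.0527). Exons of Fen1 overlap those of Tmem258 and of a gene model, so part of its reads may belong to them. Lig1, the ligase that seals the fragments, did not pass, with 6.79, 13.1 and 20.1 CPM at lowest, median and highest in MMSET-Ikk2ca, against 3.62, 3.56, 12.2 and 6.34 CPM in Control(M) (1.06, SE 0.419, adjusted p = 0.137). The Lig1 ranges overlapped.

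Among the genes of nucleotide supply, Tk1 had a higher mean level in each of the 4 groups that carry Ikk2ca than in the 4 that do not. Tk1 encodes cytosolic thymidine kinase, which salvages thymidine for DNA (chromosome 11, 117815526 to 117826092 on GRCm38, minus strand). In cohort D its level was 27.4 CPM at lowest, 31.0 at the median and 35.8 at highest in Ccnd1-Ikk2ca. It was at 60.9, 35.1, 22.7 and 19.6 CPM in Ikk2ca(D), at 10.4, 12.9, 13.3 and 13.1 CPM in Ccnd1, and at 21.8, 16.9, 13.6 and 19.8 CPM in Control(D). All 6 Ccnd1-Ikk2ca libraries lay above all 8 libraries of Ccnd1 and Control(D), while Ikk2ca(D) spread widely and overlapped Control(D). In cohort M it was 28.3 CPM at lowest, 35.1 at the median and 42.6 at highest in MMSET-Ikk2ca. It was at 35.03, 26.2, 29.5 and 30.5 CPM in Ikk2ca(M), at 9.90, 14.8, 27.3 and 12.7 CPM in MMSET, and at 27.8, 7.27, 18.1 and 12.6 CPM in Control(M). MMSET-Ikk2ca lay above all libraries of MMSET and Control(M), while Ikk2ca(M) overlapped both through its lowest library. MMSET-Ikk2ca 4, with almost no Mki67, had 28.3 CPM of Tk1, the lowest of its group. The part of dividing cells in the Tk1 level was not tested.

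Tk1 rose in Ccnd1-Ikk2ca by 1.32 on the log2 scale against Ccnd1 (SE 0.247, adjusted p = 0.00334) and by 0.79 against Control(D) (SE 0.241, adjusted p = 0.0396). It rose in MMSET-Ikk2ca by 1.10 against Control(M) (SE 0.306, adjusted p = 0.0354). In the other comparisons for Ikk2ca the difference did not pass, with 1.13 for MMSET-Ikk2ca against MMSET (SE 0.307, adjusted p = 0.0731). It was 0.93 for Ikk2ca(D) against Control(D) (SE 0.26, adjusted p = 0.121) and 0.87 for Ikk2ca(M) against Control(M) (SE 0.326, adjusted p = 0.276). Adding the second transgene to Ikk2ca gave -0.14 for Ccnd1-Ikk2ca against Ikk2ca(D) (95% interval -0.63 to 0.35) and 0.23 for MMSET-Ikk2ca against Ikk2ca(M) (-0.39 to 0.85). Without Ikk2ca it gave -0.53 for Ccnd1 against Control(D) (adjusted p = 0.799) and -0.03 for MMSET against Control(M). The interaction was 0.39 in cohort D (-0.34 to 1.12) and 0.26 in cohort M (-0.66 to 1.18). These comparisons share libraries within a cohort and are not independent of each other.

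The call against Ccnd1 held when each of its 10 libraries was left out (adjusted p between 0.00585 and 0.0211). Cell type markers differed in this comparison too. The 10 neutrophil markers summed to 1.24 to 207 CPM in Ccnd1-Ikk2ca, against 370 to 1472 CPM in Ccnd1, with a median log2 fold change of -4.22 and with Elane and Mpo fallen. The 10 plasma cell markers summed to 7698 to 19677 CPM in Ccnd1-Ikk2ca, against 30641 to 119988 CPM in Ccnd1, and 4 of 10 fell, beside 3.39% of all genes. Falls were also found for 2 of 3 B cell precursor markers (Ebf1 and Cd93) and 1 of 8 B cell markers (Ms4a1). So did 1 of 6 T and NK cell markers (Cd3g) and 1 of 9 monocyte and macrophage markers (Lyz2) fall, and 0 of 6 erythroid markers. The part of these markers in the Tk1 difference was not tested. The call against Control(D) was lost without Control(D) 1 (adjusted p = 0.051), 2 (0.106), 3 (0.128) or 4 (0.063), and without Ccnd1-Ikk2ca 1 (0.0651), 2 (0.0598), 3 (0.0599) or 4 (0.0607). The call against Control(M) was lost without Control(M) 2 (0.0859), 3 (0.0703) or 4 (0.105), and without MMSET-Ikk2ca 1 (0.0674), 2 (0.0555), 3 (0.059) or 5 (0.0598). Of the Tk1 reads 64.8% were assigned to its protein-coding transcript and 15.1% to a transcript with a retained intron. With protein-coding transcripts alone Tk1 averaged 19.4 ± 3.28 CPM in Ccnd1-Ikk2ca (n = 6), 22.2 ± 15.8 CPM in Ikk2ca(D), 6.96 ± 1.92 CPM in Ccnd1 and 9.93 ± 1.95 CPM in Control(D) (n = 4 each). In cohort M it averaged 25.7 ± 4.67 CPM in MMSET-Ikk2ca (n = 6), 20.4 ± 2.14 CPM in Ikk2ca(M), 9.99 ± 7.60 CPM in MMSET and 10.1 ± 5.04 CPM in Control(M) (n = 4 each). The order of groups with and without Ikk2ca was the same on this count. The difference from Ccnd1 was then 1.47 (adjusted p = 0.0101), while those from Control(D) (0.94, adjusted p = 0.0606) and Control(M) (1.32, adjusted p = 0.067) missed the threshold. Exons of Tk1 overlap those of Afmid, and reads of both genes cannot be told apart without strand.

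**Figure D4:**
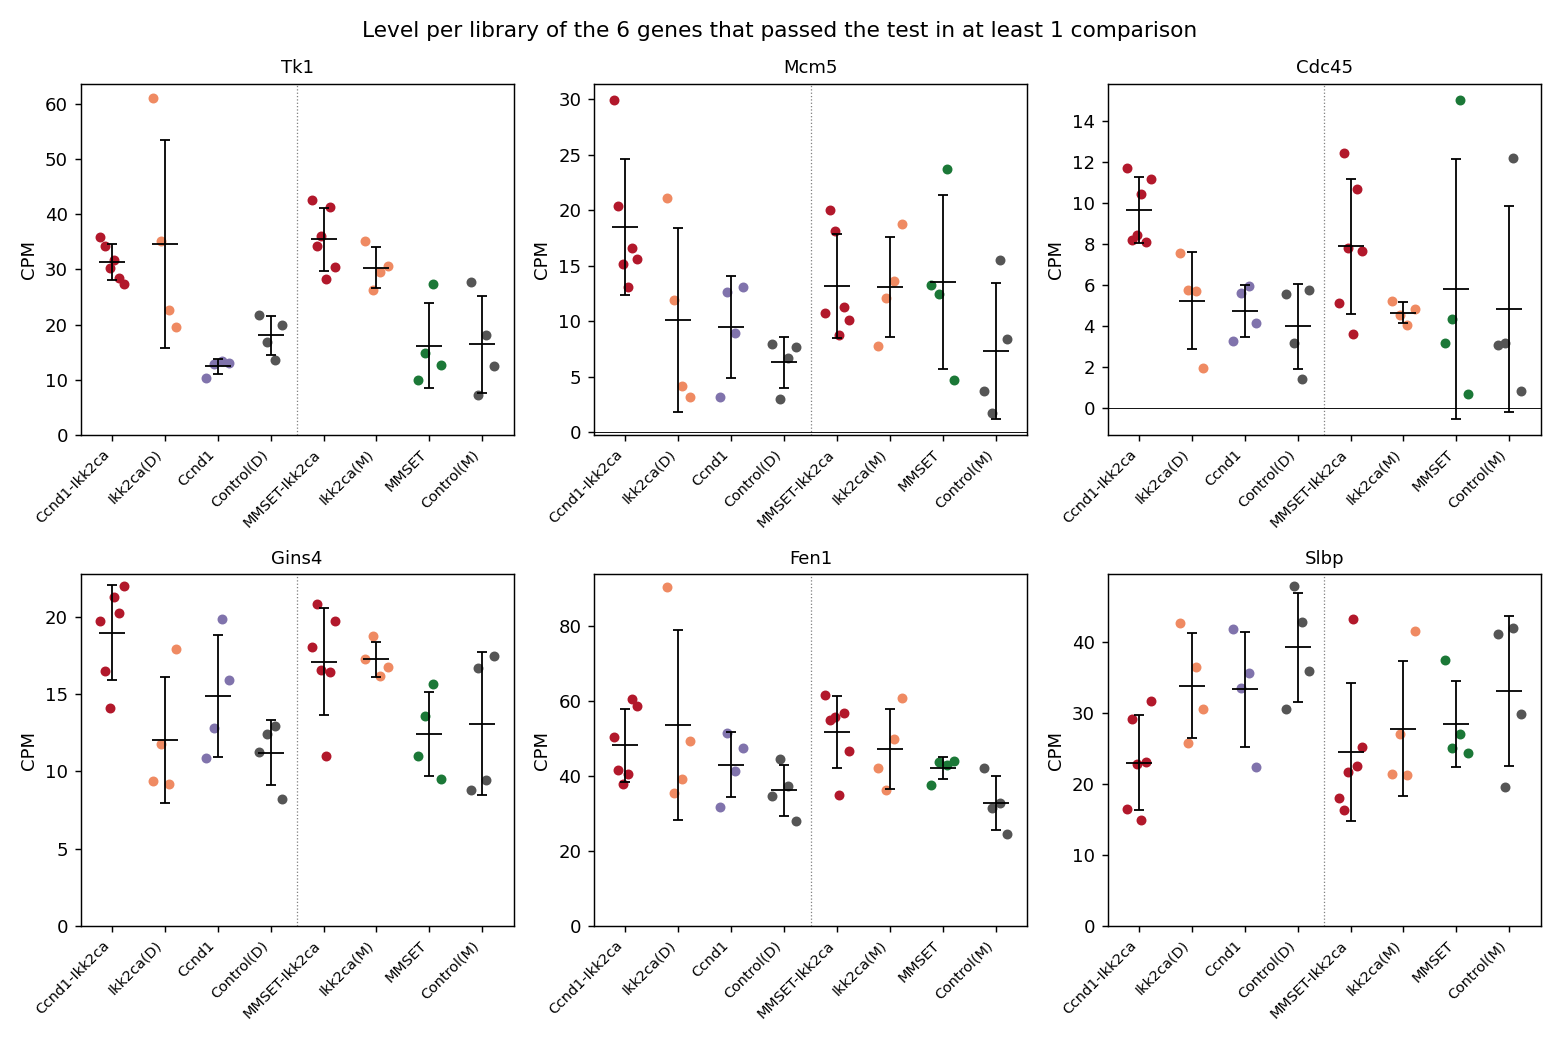
CPM per library of the 6 genes that passed in at least 1 comparison, with group mean and SD as bars; the dotted line parts the cohorts. Tk1 is at 27.4 CPM or more in every double transgenic library, Cdc45 is higher in Ccnd1-Ikk2ca than in all other cohort D libraries, and Slbp has its lowest mean in Ccnd1-Ikk2ca with 1 high library in MMSET-Ikk2ca.

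The other genes of nucleotide supply did not pass. Rrm1, the large subunit of ribonucleotide reductase, was at 15.8, 24.8 and 34.1 CPM at lowest, median and highest in MMSET-Ikk2ca and at 14.8, 25.2, 38.6 and 16.2 CPM in MMSET, against 18.1, 7.81, 22.9 and 3.85 CPM in Control(M). The groups overlapped, with differences of 0.93 for MMSET-Ikk2ca (SE 0.396, adjusted p = 0.168) and 0.84 for MMSET (SE 0.425, adjusted p = 0.405). Rrm2, the small subunit, differed by 0.58 in Ccnd1-Ikk2ca against Control(D) and by -0.19 in MMSET-Ikk2ca against Control(M). In MMSET-Ikk2ca 4 it was at 1.91 CPM, the lowest of all 36 libraries. Tyms, thymidylate synthase, makes thymidylate by the route that does not need thymidine kinase. It was at 3.78, 4.86 and 10.4 CPM at lowest, median and highest in Ccnd1-Ikk2ca, against 7.48, 9.50, 11.5 and 6.995 CPM in Control(D), and the groups overlapped through 1 high Ccnd1-Ikk2ca library (-0.68, SE 0.294, adjusted p = 0.149). In MMSET Tyms had 10.1, 8.89, 17.7 and 7.34 CPM, against 6.22, 3.67, 5.93 and 10.003 CPM in Control(M) (0.76, SE 0.372, adjusted p = 0.384). Only 27.9% of Tyms reads lay on protein-coding transcripts, against a median of 97.7% for the 37 genes. Dut, which removes dUTP, had 3.66, 2.66, 4.38 and 4.23 CPM in Ikk2ca(M), against 8.46, 5.47, 10.1 and 3.58 CPM in Control(M). The ranges overlapped, and the difference was -0.90 (SE 0.367, adjusted p = 0.317). Ung, which cuts uracil out of DNA, differed by -0.55 in Ccnd1-Ikk2ca against Control(D) and by -0.52 in MMSET-Ikk2ca against Control(M), neither past the threshold.

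Slbp, which binds the stem-loop of replication histone messenger RNAs, fell in Ccnd1-Ikk2ca. Its level was 14.9 CPM at lowest, 23.0 at the median and 31.8 at highest in Ccnd1-Ikk2ca, against 30.5, 48.0, 42.9 and 35.9 CPM in Control(D). Only the highest Ccnd1-Ikk2ca library lay within the Control(D) range. The log2 fold change was -0.77 (SE 0.218, adjusted p = 0.0276). The single groups stood between, at 33.9 ± 7.37 CPM in Ikk2ca(D) and 33.4 ± 8.15 CPM in Ccnd1, against 39.3 ± 7.66 CPM in Control(D) (n = 4 each). In MMSET-Ikk2ca the Slbp level was 24.5 ± 9.71 CPM (n = 6), with 16.3, 22.2 and 43.2 CPM at lowest, median and highest, against 41.1, 19.6, 42.0 and 29.9 CPM in Control(M) (-0.44, SE 0.273, adjusted p = 0.392). The highest value, 43.2 CPM, belonged to MMSET-Ikk2ca 4, the library with the lowest replication sum of its group. The Slbp call was lost without Control(D) 2 (adjusted p = 0.101) or 3 (0.0766), and without Ccnd1-Ikk2ca 1 (0.0511), 3 (0.0506), 4 (0.0539) or 5 (0.0507). Exons of Slbp overlap those of a gene model, Gm10459, on the opposite strand, so part of its reads may belong to it. The remaining chromatin genes did not pass in edgeR's test. Uhrf1, which keeps DNA methylation through replication, was at 5.43, 8.45 and 14.7 CPM at lowest, median and highest in Ccnd1-Ikk2ca, against 1.59, 1.63, 2.42 and 6.55 CPM in Ccnd1. DESeq2 called this Uhrf1 difference (1.58, adjusted p = 0.0359), while edgeR gave 1.57 (SE 0.564, adjusted p = 0.102), and the groups overlapped through the highest Ccnd1 library. Uhrf1 differed by 0.94 in Ccnd1-Ikk2ca against Control(D) and by 1.26 in MMSET-Ikk2ca against Control(M). Chaf1a differed by 1.22 and 0.52 in the same comparisons.

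The regulators of S phase entry among the 37 did not pass. E2f1, which encodes an E2F factor, stood at 5.71 ± 3.03 CPM in Ccnd1-Ikk2ca (n = 6), 5.64 ± 3.26 CPM in Ikk2ca(D), 8.75 ± 2.46 CPM in Ccnd1 and 6.93 ± 2.10 CPM in Control(D) (n = 4 each). In cohort M it stood at 5.65 ± 2.48 CPM in MMSET-Ikk2ca (n = 6) and 8.50 ± 4.18 CPM in Control(M) (n = 4). Ccne1, cyclin E1, had 20.5, 19.4, 33.7 and 13.8 CPM in MMSET, against 14.9, 4.96, 20.04 and 16.6 CPM in Control(M) (0.63, SE 0.346, adjusted p = 0.468). Ccne2, cyclin E2, had 2.40, 0.223, 3.22 and 1.59 CPM in Ikk2ca(M), against 3.94, 2.16, 4.20 and 6.31 CPM in Control(M) (-1.17, SE 0.754, adjusted p = 0.6). Both pairs of groups overlapped.

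Of 52 further replication genes, 2 rose and 1 fell in Ccnd1-Ikk2ca against Control(D) (5.77%, beside 11.1% of all genes). Tipin, a fork protection factor, rose by 1.07 (SE 0.241, adjusted p = 0.0081), Pole3, a subunit of polymerase epsilon, rose by 1.06 (adjusted p = 0.0159), and Dck, the deoxycytidine salvage kinase, fell by 1.35 (adjusted p = 0.0159). In MMSET-Ikk2ca against Control(M) none rose and Pold4, a small subunit of polymerase delta, fell by 1.04 (adjusted p = 0.0415), 1.92% of the list beside 6.91% of all genes. Their medians were 0.25 and 0.25. None of the 30 mitosis genes passed in any of the 13 comparisons. Their median log2 fold change was 0.34 in Ccnd1-Ikk2ca and -0.73 in Ikk2ca(D) against Control(D), and 0.42 in MMSET-Ikk2ca and -0.32 in Ikk2ca(M) against Control(M). It was 0.90 in Ccnd1-Ikk2ca against Ikk2ca(D), 0.89 in MMSET-Ikk2ca against Ikk2ca(M), 0.14 in Ccnd1-Ikk2ca against Ccnd1 and -0.18 in MMSET-Ikk2ca against MMSET. Against the Ikk2ca groups 29 of the 30 were positive in each cohort, where 51.3% and 51.8% of all genes were, and 7 and 0 had an unadjusted p under 0.05, where 11.3% and 12.5% of all genes did. The 37 replication genes had medians of 0.37 and 0.38 in these 2 comparisons, with 27 and 28 positive.

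Of 30 E2F and CDK regulators, 23.3% passed in Ccnd1-Ikk2ca against Control(D), beside 11.1% of all genes. The 5 that rose were Ccnd1, which is the transgene's own gene (9.69), Ccnd2, Cdkn1a, Cdkn2c and Tfdp2, and the 2 that fell were E2f4 and Fbxw7. In MMSET-Ikk2ca against Control(M) Cdkn1a rose while Cdkn2c and Cdk6 fell. Cdkn1a, which encodes the CDK inhibitor p21, rose in all 4 groups that carry Ikk2ca. Its log2 fold change was 4.17 in Ccnd1-Ikk2ca (SE 0.484, adjusted p = 5.2e-05) and 3.60 in Ikk2ca(D) (SE 0.485, adjusted p = 0.00248) against Control(D). Against Control(M) it was 3.99 in MMSET-Ikk2ca (SE 0.547, adjusted p = 0.000338) and 3.10 in Ikk2ca(M) (SE 0.541, adjusted p = 0.0118). The CDK inhibitor Cdkn2c stood at 18.9 ± 4.12 CPM in Ccnd1-Ikk2ca, against 9.27 ± 0.691 CPM in Control(D). In MMSET-Ikk2ca it stood at 2.15 ± 0.831 CPM, against 8.74 ± 2.93 CPM in Control(M) (n = 6 and n = 4 in each pair). The difference between these 2 effects on Cdkn2c was 3.06 (SE 0.401, adjusted p = 6.5e-05).

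Some markers of other bone marrow cells fell in the double transgenic groups. In Ccnd1-Ikk2ca against Control(D), where 5.32% of all genes fell, 4 of 8 B cell markers fell, 3 of 3 B cell precursor markers, 1 of 6 T and NK cell markers, 1 of 10 neutrophil markers, 1 of 9 monocyte and macrophage markers (Adgre1) and 0 of 6 erythroid markers, and none rose. In MMSET-Ikk2ca against Control(M), where 3.41% of all genes fell, the falls were 3 of 7 B cell, 1 of 3 B cell precursor, 0 of 7 T and NK cell, 3 of 9 neutrophil, 1 of 9 monocyte and macrophage (Lyz2) and 0 of 6 erythroid markers. There C1qb, a macrophage marker, and Slc4a1, an erythroid marker, rose. No marker of megakaryocytes, dendritic cells or basophils passed in either comparison.

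The 8 B cell markers summed to 44.8 to 61.8 CPM in Ccnd1-Ikk2ca, against 111 to 211 CPM in Control(D), and to 65.5 to 132 CPM in MMSET-Ikk2ca, against 159 to 429 CPM in Control(M). The 10 neutrophil markers summed to 1.24 to 207 CPM in Ccnd1-Ikk2ca, against 49.0 to 502 CPM in Control(D), and to 0.759 to 11.7 CPM in MMSET-Ikk2ca, against 39.3 to 187 CPM in Control(M). Control(M) 3, highest of its group in 21 of the 37 replication genes, also had the highest B cell sum, 429 CPM. The other libraries named for high replication levels did not have the highest B cell sums of their groups. MMSET 3 (18.1 CPM) and Ikk2ca(M) 4 (75.0 CPM) had the lowest B cell sums of their groups. Ikk2ca(D) 1 had 192 CPM, below the 201 CPM of Ikk2ca(D) 2. Ikk2ca(M) 4 had the highest neutrophil sum of its group, 428 CPM against 5.86 to 97.4 CPM. Its monocyte and macrophage sum was also the highest, 334 CPM against 45.7 to 82.2 CPM. In Ccnd1-Ikk2ca 1, with the highest replication sum of its group, these sums were 207 and 129 CPM, again the highest. In Control(M) 3 only the latter was, at 146 CPM. In MMSET 3 (76.1 and 102 CPM) and Ikk2ca(D) 1 (105 and 69.5 CPM) neither was. Erythroid markers summed to 15.5 CPM at most in any library. Of the plasma cell markers 4 of 10 fell in Ccnd1-Ikk2ca against Control(D) and 5 of 10 in MMSET-Ikk2ca against Control(M). Jchain, Mzb1 and Tnfrsf17 fell in both, Tnfrsf13b in the former only, and Xbp1 and Cd38 in the latter only. The part of these markers in the replication gene differences was not tested.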

How the data were processed

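Per the labels' protocols, cDNA was primed with oligo-dT, extended by template switching, amplified and tagged with Nextera XT; no molecular identifiers are described, so PCR copies stay in the counts. The submitters' processing notes name bcl2fastq 2.20.0.422, Salmon 1.3.0, DESeq2 1.32.0 and the build GRCm38. The deposited tables give, for 140825 transcripts per library, estimated counts (fractions of reads included) and TPM, both in Salmon's format, per the file headers.

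Estimated counts were summed to genes with GENCODE release 21 (139960 transcripts matched) and rounded. Reads of overlapping genes could not be told apart by strand. Beyond the overlaps named above, exons of Rfc4, Rfc5 and Lig1 overlap those of Eif4a2, Wsb2 and Zswim9. Exons of Gins2, Ccne2, Chaf1a and Pole overlap other genes too. Each cohort of 18 libraries was fitted in 1 model in R 4.3.3 by the two-sided quasi-likelihood test of edgeR 4.0.16, with its robust option, after filterByExpr and TMM; this kept 15323 (cohort D) and 15416 (cohort M) genes. The difference between double effects used all 36 libraries (17116 genes). P-values were adjusted over all genes tested by Benjamini-Hochberg, with 0.05 as the threshold. SEs were taken from F as the size of the log2 fold change over its root, and 95% intervals use the t distribution with the test's degrees of freedom. Levels are CPM scaled by TMM over all 36 libraries. Alternatives were DESeq2 1.42.0, DESeq2 size factors, leaving out the filter or the immunoglobulin genes, a replicate block, 1 fit of all 36 libraries, a fit of just the compared groups, leaving out each library, and protein-coding transcripts only, the last chosen after seeing the data.

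The 37 genes and the other lists were chosen with earlier results of these data known. Per-library values and full statistics are given for genes called in any of the 13 comparisons, and for the 6 genes with the smallest p in each comparison of a transgenic group with its control; Mcm10 values were added after they were seen. Tables and plots were made with Python 3.11.15, pandas 2.3.3, numpy 2.4.6 and matplotlib 3.10.9. Upstream sequences came from RefSeq (GRCm38.p6), and for 27 of the 31 windows the bases just after the start were found in GENCODE transcripts.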

Additional observations from a re-analysis of the deposited data

Results flagged for a closer look

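In 4 of 64 checks of a gene or sum within a group of 4 or 6 libraries, 1 library lay far from the rest. Chance flags about 1 in 20 such groups, so a count of 4 is near what chance gives. Tk1 in Ccnd1 1 was at 10.4 CPM, below the 12.9 to 13.3 CPM of the other Ccnd1 libraries. Fen1 in MMSET 1 was at 37.6 CPM, below the 42.9 to 43.9 CPM of the other MMSET libraries. Slbp in MMSET-Ikk2ca 4 was at 43.2 CPM, above the 16.3 to 25.2 CPM of the other MMSET-Ikk2ca libraries. The 30 mitosis genes in MMSET-Ikk2ca 4 summed to 53.1 CPM, below the 244 to 347 CPM of the other MMSET-Ikk2ca libraries. In this library Slbp was high while the mitosis genes were low.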

How the results depend on the processing

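Of the 37 genes, 5 passed in Ccnd1-Ikk2ca against Control(D). This count was 2 with no low-count filter, 1 with a replicate block, 2 with all 36 libraries in 1 fit, and 0 to 4 with a library left out. For MMSET-Ikk2ca against Control(M) the count of 2 became 0 with a replicate block, 1 with all 36 libraries in 1 fit, 0 with only the groups compared, 1 with protein-coding transcripts only, and 0 to 2 with a library left out. For Ccnd1-Ikk2ca against Ccnd1 the count of 1 became 2 with DESeq2 (Tk1 and Uhrf1), 3 with only the groups compared (Tk1, Mcm3 and Cdc45), and 1 to 3 with a library left out. DESeq2 called 1 gene in Ikk2ca(D) against Control(D) and 1 in MMSET-Ikk2ca against MMSET, where all 36 libraries in 1 fit also called 1 and leaving out a library gave 0 to 1. Tk1 against Ccnd1 passed under all 8 other settings. No named log2 fold change reversed under the alternatives run. Same-numbered libraries deviated together little, with a median correlation of 0.01 for D and 0.03 for M and 0 and 1 of 24 pairs over 0.1. For libraries of different number the medians were -0.004 and -0.007. The labels do not say whether a number marks a shared litter or day, and these correlations cannot exclude it. Apart from Tk1 against Ccnd1, the calls rest on adjusted p-values near the threshold, and the cause of their loss under the alternatives was not tested. Gins1, Pole, Chaf1b and Mcm10 had the fewest reads of the 37 genes (medians of 54.5, 76, 86.5 and 106.5 per library) and wide SEs in both double groups against their controls (0.921 to 1.56 on the log2 scale); the part of depth in these SEs was not tested.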
